A study of Homo sapiens with 12 samples.

Results

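The interferon-stimulated effector genes are the genes whose products carry out the antiviral state. They were followed here in HaCaT cells, a spontaneously immortalized line of human skin keratinocytes, that were irradiated repeatedly with blue light or kept in the dark. The set was made of 46 named genes, found by symbol among the 45372 rows of the count table, and it left out RNA sensors and MHC genes. The 46 symbols took up 48 rows, because IFI27 and IRF7 each had a second row under another identifier with 0 counts in every library. All 46 genes passed the filter on low counts, which left 12878 genes for testing.

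Irradiated cultures received 50 J per cm2 of 408 nm light at 4.6 mW per cm2 while in buffered saline, 3 times weekly for at most 14 weeks, at a dose the submitters set by its toxicity. The 6 groups were blue_3, blue_14 and blue_42, sampled after 3, 14 and 42 irradiations, and the dark cultures matched to each, dark_3, dark_14 and dark_42. All groups were wild-type HaCaT cells, passaged throughout, and no interferon or virus is named in the labels. Each group had 2 libraries, a and b, and nothing in the labels ties these to separate cultures. The p-values therefore speak only of the spread between libraries, which may be technical. Whether dark plates also stood in saline is not stated there, and months in culture, passage number and the day of library preparation cannot be told apart in the comparisons over time.

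Interferons are secreted proteins that bind receptors on the cell surface and activate kinases of the JAK family. Type I and type III interferons lead to ISGF3, a complex that holds STAT2 and IRF9 and binds the interferon-stimulated response element (ISRE) in promoters. Interferon gamma acts mainly through another element, GAS. Keratinocytes are known to make and answer both type I and type III interferons, and many interferon-stimulated genes keep a basal level without added interferon.

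Promoter windows are shown because the ISRE is the known binding element of ISGF3. A match to its letters is a description and not a bound site. Of the 46 genes, 38 had a promoter window in the RefSeq table for GRCh38.p14, spanning 250 bases before to 50 bases after a transcript start. The ISRE core was searched on either strand as GAAA, then 2 bases of any kind, then GAAA, which reads TTTC, 2 bases, TTTC when it lies on the other strand, and overlapping matches were kept. It was present for 26 of the 38 genes (68.4%), against 4.38% of the 27305 genes in the table. The GAS element, searched as TTC, 3 bases of any kind and GAA, was present for 12 of the 38 (31.6%), against 9.38% of all genes. Windows are shown for the 4 genes with a sequence in the table that were lower in blue_42 than in dark_42. They are also shown for IFIT1, a neighbour of IFIT3 that was called in no comparison, and for OAS1, which rose with time. The OAS1 window has no core as searched. It does hold gaaacgaaa, with 1 base between the runs of GAAA, which the search does not match. Capitals mark the core and each sequence reads 5′ to 3′ on the plus strand, which is the strand of all 6 genes.
ISG15: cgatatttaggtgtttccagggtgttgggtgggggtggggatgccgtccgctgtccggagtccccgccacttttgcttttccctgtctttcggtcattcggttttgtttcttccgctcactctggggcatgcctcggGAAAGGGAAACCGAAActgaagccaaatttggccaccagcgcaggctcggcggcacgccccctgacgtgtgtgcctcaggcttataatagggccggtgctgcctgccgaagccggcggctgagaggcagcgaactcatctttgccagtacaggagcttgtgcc
HERC5: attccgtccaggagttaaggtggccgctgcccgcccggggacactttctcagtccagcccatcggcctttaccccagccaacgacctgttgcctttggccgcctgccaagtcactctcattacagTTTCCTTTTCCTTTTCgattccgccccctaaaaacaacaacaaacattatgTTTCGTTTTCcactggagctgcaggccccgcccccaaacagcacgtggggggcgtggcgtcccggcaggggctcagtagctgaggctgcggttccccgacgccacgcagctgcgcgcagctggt
IFIT3: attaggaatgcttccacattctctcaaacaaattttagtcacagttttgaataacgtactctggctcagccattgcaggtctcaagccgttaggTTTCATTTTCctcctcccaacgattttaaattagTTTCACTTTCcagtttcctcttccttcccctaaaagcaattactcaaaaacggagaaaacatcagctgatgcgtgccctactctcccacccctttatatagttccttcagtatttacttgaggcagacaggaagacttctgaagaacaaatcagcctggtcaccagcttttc
IFI44: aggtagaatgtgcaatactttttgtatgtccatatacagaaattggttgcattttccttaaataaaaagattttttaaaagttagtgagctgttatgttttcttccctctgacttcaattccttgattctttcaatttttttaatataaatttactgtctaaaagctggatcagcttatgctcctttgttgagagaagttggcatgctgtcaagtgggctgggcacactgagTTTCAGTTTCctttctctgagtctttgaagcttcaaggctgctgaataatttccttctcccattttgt
IFIT1: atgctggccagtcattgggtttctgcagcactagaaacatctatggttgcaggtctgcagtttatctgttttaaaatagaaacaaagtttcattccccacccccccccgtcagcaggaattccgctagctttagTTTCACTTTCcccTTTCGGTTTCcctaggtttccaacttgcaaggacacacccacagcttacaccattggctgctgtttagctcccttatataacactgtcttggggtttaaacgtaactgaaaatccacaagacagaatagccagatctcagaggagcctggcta
OAS1: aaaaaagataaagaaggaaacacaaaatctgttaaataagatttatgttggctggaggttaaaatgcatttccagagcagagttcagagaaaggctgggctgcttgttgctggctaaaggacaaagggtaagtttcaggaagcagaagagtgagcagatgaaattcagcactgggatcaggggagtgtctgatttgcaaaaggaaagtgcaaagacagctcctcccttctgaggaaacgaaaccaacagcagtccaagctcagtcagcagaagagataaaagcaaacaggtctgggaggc
These windows lie at chr1:1013247-1013546 for ISG15, chr4:88456869-88457168 for HERC5, chr10:89327747-89328046 for IFIT3, chr1:78649539-78649838 for IFI44, chr10:89392373-89392672 for IFIT1 and chr12:112906712-112907011 for OAS1. In ISG15 the 2 cores overlap, beginning 113 and 107 bases before the start. HERC5 holds 3 cores, of which the 2 farther from the start overlap. IFIT1 holds 2 cores within 116 bases of its start. The IFIT3 window shown also holds 2, beginning 156 and 122 bases before its start. IFIT3 and IFI44 each had another window that is not shown. That of IFIT3 held 2 further cores, and that of IFI44 held the same core.

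Library totals ran from 2073160 counts in blue_14 b to 8183941 in blue_42 b, and levels are given as CPM, counts scaled to a common library size by edgeR. A count of 3 corresponds to 0.364 to 1.43 CPM in a library. The 10 keratinocyte markers, such as KRT5 and KRT14, summed to between 4173 and 6567 CPM. The 12 leukocyte markers summed to 1.58 to 6.63 CPM with CLEC4C, LILRA4 and NKG7 among those at 0, and the 10 fibroblast markers to 4.28 to 15.2 CPM. The 5 melanocyte markers summed to 10.3 to 16.3 CPM, with MLANA and TYR at 0. The 8 neuronal markers summed to 59.2 to 231 CPM, highest in blue_3 and lowest in dark_42, and their part in the results was not tested. Most of that sum was NEFL, at 41.6 to 163 CPM, and MAP2, at 13.4 to 36.4 CPM. The highest values of the others ran from 0.260 CPM for TUBB3 to 23.5 CPM for SYT1. The 3′ tags counted here fall near transcript ends, which makes some members uncertain. IRF9 shares all 50-base stretches of its last 400 bases with another annotated gene, and IFITM1 shares 95.4% of them, IFITM3 30.2% and IFITM2 27.4%. The strand setting is not given, and LIPA on the opposite strand overlaps IFIT1, IFIT2 and IFIT3, TRIM5 overlaps TRIM22, and C5orf56 overlaps IRF1.

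Together, transcripts of the 46 genes took up 0.307% and 0.320% of counts in blue_3, 0.448% and 0.507% in blue_14 and 0.435% and 0.453% in blue_42. In the dark series they took up 0.274% and 0.275% in dark_3, 0.434% and 0.462% in dark_14 and 0.539% and 0.550% in dark_42. The share was thus higher in irradiated than in dark cultures at 3, overlapped at 14, and was lower in irradiated cultures at 42. Levels spanned a wide range, from MX2 at 0 to 2.59 CPM to IFITM3 at 628 to 1343 CPM, and 8 members averaged under 10 CPM over the 6 groups. Fewer cells carrying a transcript and less transcript per cell cannot be told apart in such bulk libraries.

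**Figure D1:**
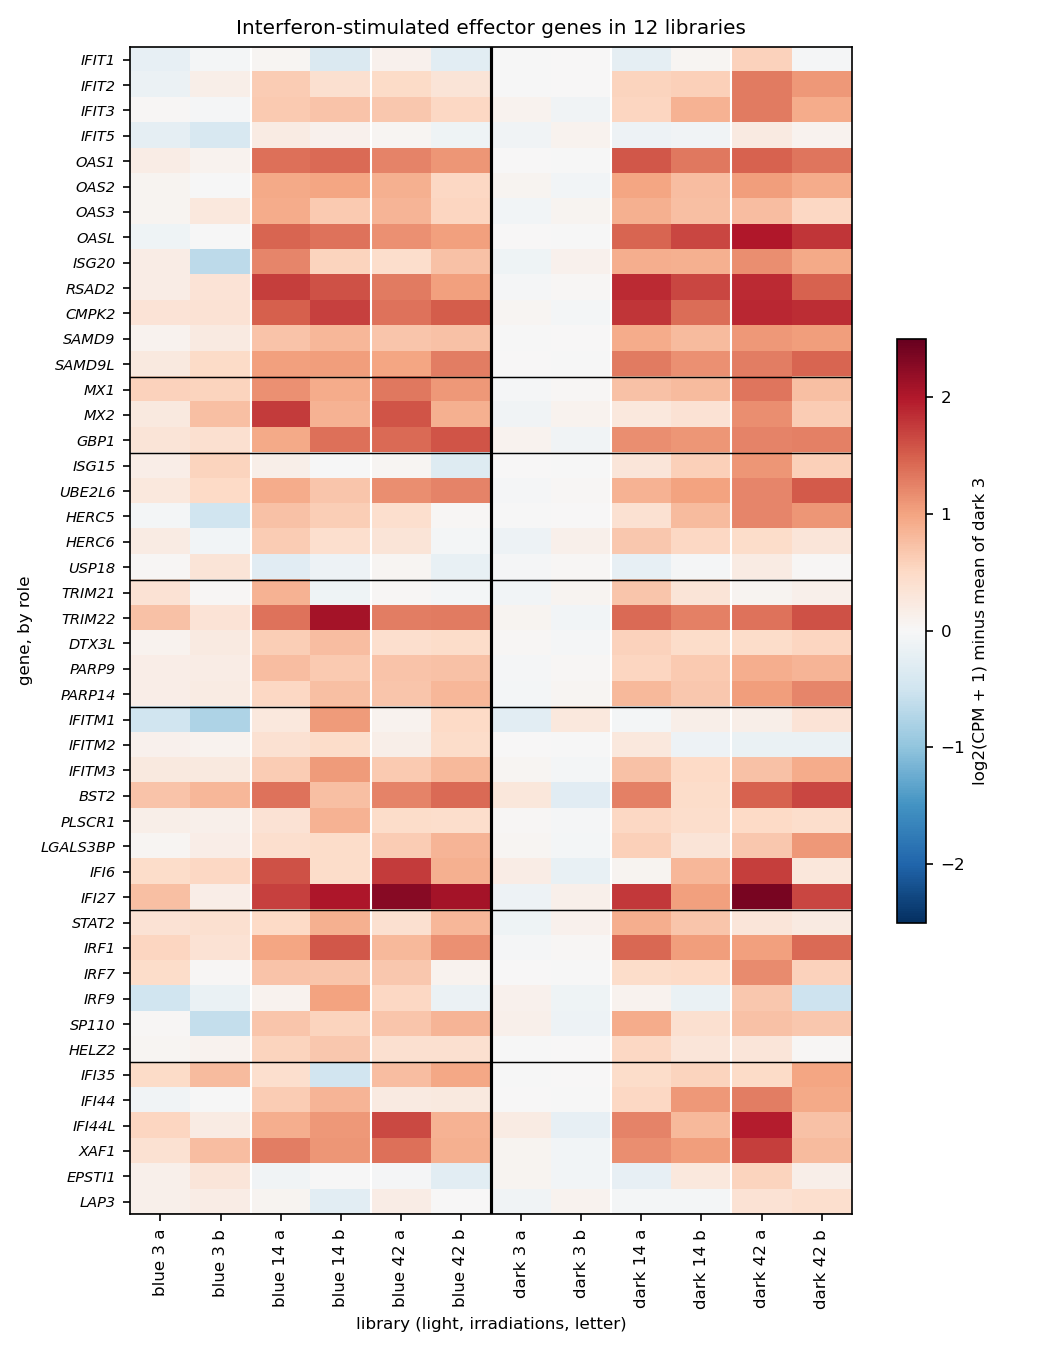
Level of each of the 46 genes (rows, grouped by role) in each of the 12 libraries (columns; irradiated left of the black line, dark right of it), as log2(CPM + 1) minus the mean of the dark_3 libraries, on a colour scale that is linear around 0. Most rows turn red after 14 and 42 irradiations in both series, while IFIT1, IFIT5, USP18 and EPSTI1 stay pale throughout.

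The first question was how the set changed with time in each series. Comparing blue_42 with blue_3, 20 of the 46 genes were higher and none was lower at an edgeR adjusted p under 0.05, where 4.40% of all tested genes were called higher. The median log2 difference of the 46 was 0.56, against 0.00 over all genes tested. Comparing blue_14 with blue_3, 25 were higher (3.62% of all genes), with a median of 0.61. From there to 42 irradiations edgeR and DESeq2 called none (0.241% of all genes in either direction), with a median of -0.11. At an unadjusted p under 0.05 stood 11 members, against 12.5% of all genes. Of the 20 genes called at 42, 10 kept the call in every alternative. Without blue_42 a or blue_42 b 13 genes were higher at 42. At 14 the number was 13 without blue_3 a, 9 without blue_3 b and 11 without blue_14 b.

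In dark cells, comparing dark_42 with dark_3, 34 of the 46 genes were higher (9.47% of all tested genes) and none was lower. The 34 include MX2 and IFI44L, which had at most 2 counts in dark_3 and passed the filter through libraries in which they were high. The median log2 difference of the 46 was 1.04, against 0.02 over all genes tested, and 45 of them lay above 0. Most of the change was already present at 14, where 29 were higher than in dark_3 (8.11% of all genes), with a median of 0.71. Between dark_42 and dark_14, 5 were higher (1.81% of all genes), namely IFIT2, HERC5, UBE2L6, PARP14 and LGALS3BP. Over the same interval 1 was lower (5.23% of all genes), STAT2. Of the 34 genes called at 42, 22 kept the call in every alternative. Without dark_3 a or dark_3 b the number higher at 14 was 16, without dark_14 a it was 18, and the number at 42 lay between 24 and 34 whichever library was left out. The count of 6 between dark_42 and dark_14 was less stable, at 1 without either dark_3 library or dark_14 a, and at 3 without dark_14 b, blue_42 a or blue_42 b. All 20 genes that were higher in blue_42 than in blue_3 were also called in the dark series, where 34 of the 46 were called. These 2 comparisons share no library, but they come from 1 fit. Neither can tell time in culture from passage number or day of preparation, so they are not independent support. Between 42 and 3, the 14 genes called only in the dark series were ISG15, ISG20, MX2, HERC5, IFI44, IFI44L, IFI35, XAF1, DTX3L, PLSCR1, BST2, IRF1, IRF7 and LAP3. For ISG15 alone of these 14 did the 2 changes themselves differ by test. Of the 14, ISG20, HERC5, IFI44, DTX3L, PLSCR1 and IRF1 were called higher in blue_14 than in blue_3. Mean levels were ordered 3 below 14 below 42 for 12 members in the irradiated series and for 30 in the dark series, and they peaked at 14 for 28 members in the irradiated series and 11 in the dark series.

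**Figure D2:**
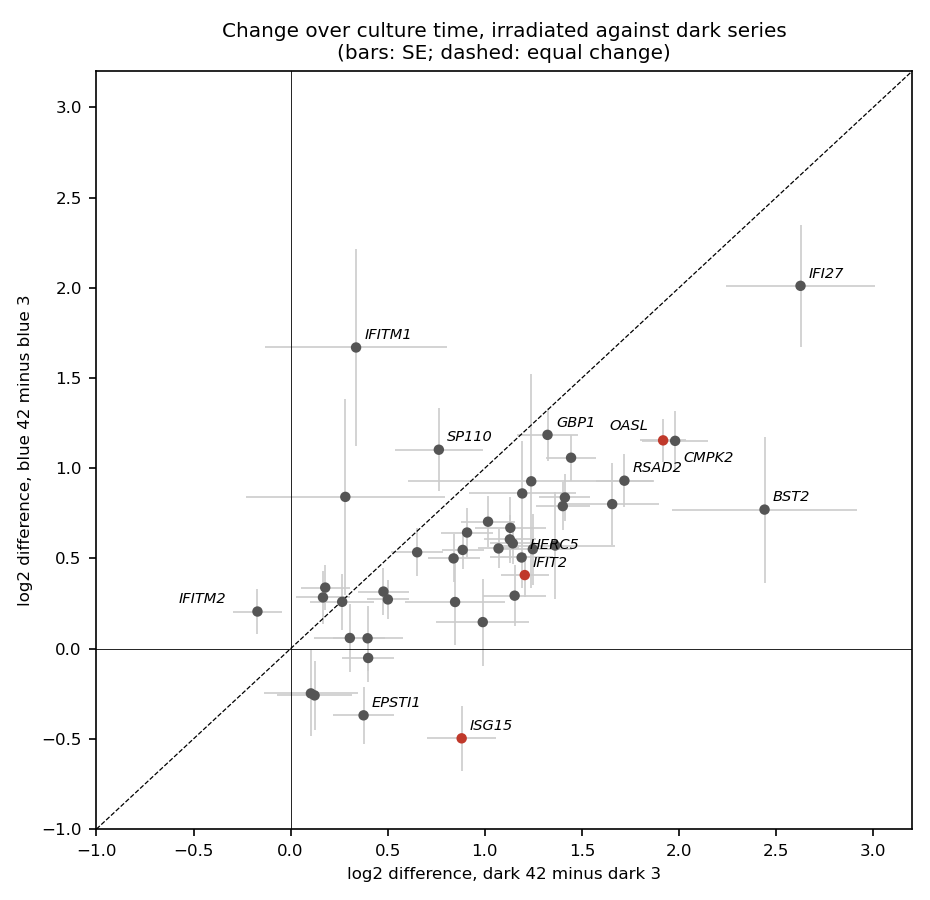
Log2 difference between 42 and 3 irradiations in the irradiated series (vertical axis) against that in the dark series (horizontal axis), for 44 genes with SE bars; MX2 and IFI44L, with at most 2 counts in dark_3, are left out. Red points are IFIT2, OASL and ISG15, whose 2 changes differed by an edgeR test. For 40 of all 46 genes the signed log2 difference was lower in the irradiated series than in the dark series.

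Among proteins that act on RNA and nucleotides, 10 of 13 genes rose in blue_42 relative to blue_3 and 11 in dark_42 relative to dark_3. The 2 that were called in neither were IFIT1 and IFIT5. Over all tested genes the shares called higher were 4.40% and 9.47%, which also apply to the role groups below. OASL, an enzymatically inactive relative of the oligoadenylate synthetases that carries ubiquitin-like domains, had the smallest adjusted p of the set. It stood at 55.6 and 59.1 in blue_3, 165 and 155 in blue_14 and 133 and 122 CPM in blue_42. Dark cultures held 59.9 and 59.5 in dark_3, 165 and 192 in dark_14 and 242 and 209 CPM in dark_42. Every library at 14 and 42 lay above every library at 3. The dark_42 libraries were the highest of the 12, and both blue_42 libraries lay below both blue_14 libraries. The log2 difference was 1.15 ± 0.12 between blue_42 and blue_3 (edgeR adjusted p = 5.22e-06) and 1.92 ± 0.12 between dark_42 and dark_3 (adjusted p = 6.02e-09).

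The 3 true synthetases, which make the 2′-5′ oligoadenylates that switch on RNase L, lie side by side on chromosome 12 and rose in both series. OAS1 held 26.9 and 24.9 in blue_3, 62.6 and 64.0 in blue_14 and 56.7 and 51.5 CPM in blue_42. Dark libraries of OAS1 held 23.8 and 23.2 in dark_3, 71.0 and 59.9 in dark_14 and 67.0 and 60.9 CPM in dark_42. Every library at 14 and 42 lay above every library at 3, and at 42 both irradiated libraries lay below both dark ones. Between 42 and 3 it rose by 1.06 ± 0.13 in irradiated and 1.44 ± 0.13 in dark cells (edgeR adjusted p = 2.53e-05 and 3.11e-07). OAS2 rose by 0.70 ± 0.14 in irradiated cells (adjusted p = 0.00383) and 1.02 ± 0.14 in dark cells (adjusted p = 6.47e-05). OAS3 rose by 0.53 ± 0.13 in irradiated cells (adjusted p = 0.0163) and 0.65 ± 0.13 in dark cells (adjusted p = 0.00224).

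RSAD2, or viperin, turns CTP into a chain terminator of viral polymerases, and CMPK2, a mitochondrial nucleotide kinase, is its divergent neighbour on chromosome 2. RSAD2 stood at 28.2 and 31.6 in blue_3, 84.2 and 76.9 in blue_14 and 62.4 and 51.5 CPM in blue_42. Dark libraries stood at 24.3 and 25.2 in dark_3, 92.5 and 81.0 in dark_14 and 92.3 and 70.6 CPM in dark_42. It peaked at 14 in the means of both series, and at 42 both irradiated libraries lay below both dark ones. CMPK2 held 10.5 and 10.7 in blue_3, 24.7 and 28.6 in blue_14 and 22.2 and 24.8 CPM in blue_42. Its dark values were 8.40 and 7.78 in dark_3, 30.4 and 22.9 in dark_14 and 32.4 and 31.5 CPM in dark_42. CMPK2 too was lowest at 3, and at 42 both irradiated libraries again lay below both dark ones. Between 42 and 3, RSAD2 rose by 0.93 ± 0.15 in irradiated and 1.72 ± 0.15 in dark cells and CMPK2 by 1.15 ± 0.17 in irradiated and 1.98 ± 0.17 in dark cells, with edgeR adjusted p between 1.93e-07 and 0.000422. SAMD9 and SAMD9L, neighbouring genes on chromosome 7 whose products restrict poxviruses, also rose in both series, by 0.56 ± 0.11 and 0.79 ± 0.13 in irradiated and 1.07 ± 0.11 and 1.40 ± 0.14 in dark cells. ISG20, a 3′ to 5′ exonuclease at 2.75 to 12.6 CPM, differed between 42 and 3 by 0.86 ± 0.29 (adjusted p = 0.0758) in irradiated cells, which did not pass, and 1.19 ± 0.28 (adjusted p = 0.00531) in dark cells, which did.

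The IFIT genes on chromosome 10 encode proteins that bind foreign RNA, and 2 of the 4 in the set, IFIT2 and IFIT3, were called over time. IFIT2 stood at 94.2 and 116 in blue_3, 162 and 138 in blue_14 and 147 and 131 CPM in blue_42. Dark libraries of IFIT2 held 104 and 106 in dark_3, 155 and 158 in dark_14 and 260.4 and 222 CPM in dark_42. Up to 14 the series overlapped, and at 42 both dark libraries lay above every other library. IFIT3, which stabilizes IFIT1 in a complex, held 192 and 184 in blue_3, 297 and 308 in blue_14 and 302 and 270.1 CPM in blue_42. Dark cultures held 199 and 178 in dark_3, 274 and 347 in dark_14 and 465 and 361 CPM in dark_42. Here too the 2 highest libraries were the dark_42 ones. IFIT2 rose by 0.41 ± 0.12 (adjusted p = 0.0478) and IFIT3 by 0.61 ± 0.13 (adjusted p = 0.00734) between blue_42 and blue_3, and by 1.21 ± 0.12 and 1.13 ± 0.13 between dark_42 and dark_3 (edgeR adjusted p = 1.78e-06 and 1.03e-05). The IFIT2 call in irradiated cells held in 10 of 20 alternatives and was lost with DESeq2 and without either blue_42 library. IFIT1, shown beside them after its values were seen, ranged from 37.2 to 51.4 CPM in irradiated and from 41.0 to 71.3 CPM in dark libraries, with its highest value in dark_42 a. Its differences were 0.06 ± 0.19 in irradiated cells (adjusted p = 0.902) and 0.30 ± 0.18 in dark cells (adjusted p = 0.276). IFIT5, at 17.0 to 26.8 CPM, was not called in any of the 12 comparisons either.

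**Figure D3:**
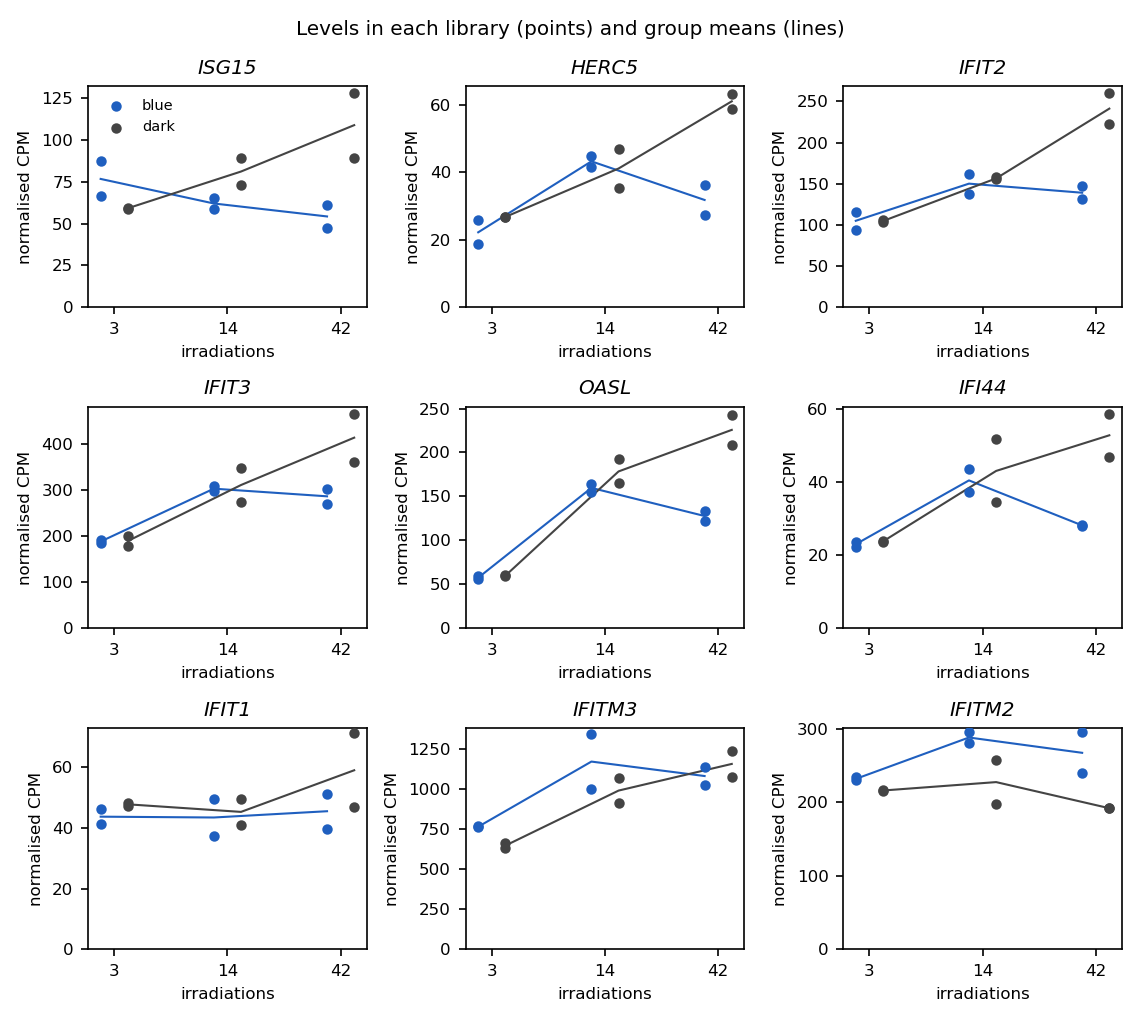
Normalised CPM of 9 genes in each library (points; blue for irradiated, black for dark) with lines through group means, against the number of irradiations, spaced as categories. ISG15, HERC5, IFIT2, IFIT3, OASL and IFI44 diverge at 42, while IFIT1, IFITM3 and IFITM2, chosen as contrasts after their values were seen, do not show both irradiated points lower there. At 14, both irradiated points were already lower for ISG15 and, narrowly, for OASL, without a call.

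The GTPases MX1, MX2 and GBP1 assemble on viral or microbial structures. MX1 and GBP1 rose in blue_42 relative to blue_3, and all 3 rose in dark_42 relative to dark_3. GBP1, which answers strongly to interferon gamma, held 15.6 and 16.7 in blue_3, 24.7 and 33.4 in blue_14 and 34.6 and 38.7 CPM in blue_42. Its dark values were 13.2 and 11.5 in dark_3, 28.6 and 27.7 in dark_14 and 30.6 and 31.1 CPM in dark_42. In both series its libraries at 3 were the lowest, and at 42 both irradiated libraries lay above both dark ones. It rose by 1.19 ± 0.15 in irradiated cells (adjusted p = 3.47e-05) and 1.32 ± 0.16 in dark cells (adjusted p = 1.02e-05), and these changes differed by -0.14 ± 0.22 (adjusted p = 0.858). MX1 rose by 0.67 ± 0.17 in irradiated cells (adjusted p = 0.0196) and 1.13 ± 0.18 in dark cells (adjusted p = 0.000284). MX2 was near the limit of detection, at 0.265 and 0.809 in blue_3, 2.59 and 0.955 in blue_14 and 2.20 and 0.971 CPM in blue_42. Dark values were 0 and 0.144 in dark_3, 0.286 and 0.383 in dark_14 and 1.41 and 0.650 CPM in dark_42. No more than a few counts stood behind each dark value up to 14. MX2 rested on 16 counts in dark_42 and 1 in dark_3, a ratio of 13.7 with an exact 95% interval of 2.13 to 574 that covers counting error only, so its fitted change is not a measure of size. Its dark_42 call held in 13 of 19 alternatives and was lost with DESeq2, in a fit of those groups alone, and without any 1 of the dark_3 and dark_42 libraries. MX2 passed the filter on low counts through the libraries in which it was high.

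The ISG15 system joins the ubiquitin-like ISG15 to newly made proteins through the conjugating enzyme UBE2L6 and the ligase HERC5, and USP18 takes it off and also dampens the type I receptor. Of the 5 genes of this system, which include HERC6, UBE2L6 alone passed the test in blue_42 relative to blue_3, and 3 rose in dark_42 relative to dark_3, namely ISG15, UBE2L6 and HERC5. ISG15 stood at 66.2 and 87.1 in blue_3, 65.2 and 58.7 in blue_14 and 61.3 and 47.1 CPM in blue_42. Dark libraries stood at 59.5 and 58.8 in dark_3, 72.7 and 89.4 in dark_14 and 128 and 89.5 CPM in dark_42. Means ran in opposite orders over time, and at 14 and at 42 both irradiated libraries lay below both dark ones, with blue_42 b the lowest of all 12. At 14 this difference, -0.39 ± 0.20, was not called (edgeR adjusted p = 0.837). The change of ISG15 between 42 and 3 is given next. Its change was -0.50 ± 0.18 (adjusted p = 0.114) in irradiated cells, short of the threshold, and 0.88 ± 0.18 (adjusted p = 0.00366) in dark cells. UBE2L6 held 55.2 and 65.2 in blue_3, 87.9 and 75.4 in blue_14 and 104 and 110.5 CPM in blue_42. Its dark values were 45.2 and 46.8 in dark_3, 85.3 and 93.0 in dark_14 and 109 and 136 CPM in dark_42. Its lowest libraries were those at 3 in both series, and at 42 the series overlapped. It passed in both series, rising by 0.84 ± 0.13 in irradiated cells (adjusted p = 0.000322) and 1.41 ± 0.13 in dark cells (adjusted p = 4.47e-07) by edgeR.

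HERC5, the main human ISG15 ligase, held 25.7 and 18.6 in blue_3, 44.8 and 41.5 in blue_14 and 36.2 and 27.3 CPM in blue_42. Dark values were 26.6 and 26.8 in dark_3, 35.2 and 46.9 in dark_14 and 63.3 and 58.7 CPM in dark_42. Both blue_42 libraries lay above both dark_3 libraries, and the dark_42 libraries were the highest of the 12. Between 42 and 3 it differed by 0.51 ± 0.17 (adjusted p = 0.0766) in irradiated and 1.19 ± 0.16 (adjusted p = 5.66e-05) in dark cells. It was called higher in blue_14 than in blue_3, by 0.96 ± 0.19 (edgeR adjusted p = 0.00605). HERC6, its neighbour on chromosome 4 and the corresponding ligase in mouse, rose in dark_14 relative to dark_3 by 0.61 ± 0.19 (adjusted p = 0.0365), a call held in 14 of 19 alternatives, and at 42 differed from 3 by 0.06 ± 0.18 in irradiated and 0.40 ± 0.18 in dark cells, without passing. USP18 ranged from 8.91 to 13.9 CPM in irradiated and from 9.45 to 12.8 CPM in dark libraries and was called in no comparison.

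Of 5 other ubiquitin ligases and ADP-ribosyl transferases, 3 rose in blue_42 relative to blue_3 and 4 in dark_42 relative to dark_3. TRIM22, a RING ligase that restricts several viruses, held 8.61 and 6.31 in blue_3, 13.8 and 23.4 in blue_14 and 13.0 and 13.2 CPM in blue_42. The dark libraries held 5.07 and 4.46 in dark_3, 14.3 and 12.8 in dark_14 and 13.8 and 16.3 CPM in dark_42. In both series the libraries at 3 were the lowest, and blue_14 b stood above all others. It rose by 0.80 ± 0.23 in irradiated cells (adjusted p = 0.0341) and 1.66 ± 0.24 in dark cells (adjusted p = 0.000107). PARP9 and its ligase partner DTX3L start from opposite strands of 1 promoter region on chromosome 3, where the same ISRE core, at positions 122564332 to 122564341 of GRCh38.p14, falls in the windows of both. PARP9 rose by 0.55 ± 0.11 in irradiated cells (adjusted p = 0.003) and 0.89 ± 0.11 in dark cells (adjusted p = 1.45e-05). For DTX3L the differences were 0.27 ± 0.11 in irradiated cells (adjusted p = 0.137) and 0.50 ± 0.11 in dark cells (adjusted p = 0.00338). PARP14, a mono-ADP-ribosyl transferase, rose by 0.58 ± 0.12 in irradiated and 1.14 ± 0.12 in dark cells, and the antibody receptor TRIM21 was called in no comparison.

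Of 8 membrane and secreted proteins, 3 rose in blue_42 relative to blue_3 and 5 in dark_42 relative to dark_3. IFI27, a small mitochondrial protein used as a sensitive sign of interferon exposure in blood, held 3.18 and 1.78 in blue_3, 7.18 and 9.07 in blue_14 and 11.1 and 9.47 CPM in blue_42. Its dark values were 1.27 and 1.73 in dark_3, 7.45 and 4.09 in dark_14 and 11.9 and 6.89 CPM in dark_42. Every library at 14 and 42 lay above every library at 3, and the series overlapped at 14 and 42, while at 3 both irradiated libraries lay just above both dark ones. It rose by 2.01 ± 0.34 in irradiated cells (adjusted p = 0.000809) and 2.63 ± 0.38 in dark cells (adjusted p = 0.000104), the widest change in the irradiated series among the 20 called members. BST2, or tetherin, which holds budding virions at the cell surface, was low at 1.85 and 2.10 in blue_3, 3.45 and 1.91 in blue_14 and 3.10 and 3.64 CPM in blue_42. Dark values were 1.11 and 0.432 in dark_3, 3.15 and 1.41 in dark_14 and 3.84 and 4.55 CPM in dark_42. Both blue_3 libraries stood above both dark_3 libraries, which held only 10 counts in all, and the difference between 42 and 3 was 0.77 ± 0.40 in irradiated cells (adjusted p = 0.275) and 2.44 ± 0.48 in dark cells (adjusted p = 0.00151).

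The IFITM proteins block fusion of viral and cellular membranes, and their genes are neighbours on chromosome 11 with related sequences. IFITM3, the most abundant member, rose by 0.50 ± 0.13 in irradiated cells (adjusted p = 0.0247) and 0.84 ± 0.13 in dark cells (adjusted p = 0.000241). IFITM2, named after its values were seen, was not called: its differences were 0.21 ± 0.13 in irradiated cells (adjusted p = 0.363) and -0.17 ± 0.13 in dark cells (adjusted p = 0.376), and at 42 it held 239 and 295 CPM in irradiated and 192 and 192 CPM in dark libraries. IFITM1, at 0.486 to 4.30 CPM, was called once, in blue_14 against blue_3, at 2.13 ± 0.63 (adjusted p = 0.0482), and this call held in 6 of 18 alternatives. It was lost with DESeq2, with non-robust estimation, in a fit of those groups alone and without any of 9 single libraries. Annotated ends of IFITM1 and IFITM2 overlap on 1 strand, so the division of reads between them is uncertain. LGALS3BP, a secreted glycoprotein, rose by 0.64 ± 0.13 in irradiated cells (adjusted p = 0.00511) and 0.91 ± 0.14 in dark cells (adjusted p = 0.000123), and the scramblase PLSCR1 differed by 0.32 ± 0.13 in irradiated cells (adjusted p = 0.149) and 0.48 ± 0.13 in dark cells (adjusted p = 0.0151). IFI6, a protein of mitochondria and the endoplasmic reticulum, was called in neither comparison of 42 with 3, and its libraries differed widely, with 44.2 and 24.0 CPM in blue_42 and 43.8 and 15.5 CPM in dark_42.

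Among 6 transcription factors and coregulators, SP110 alone passed in blue_42 relative to blue_3, and 3 rose in dark_42 relative to dark_3, namely IRF1, IRF7 and SP110. SP110, a nuclear body protein, held 8.61 and 5.18 in blue_3, 14.1 and 12.9 in blue_14 and 14.2 and 15.9 CPM in blue_42. Dark libraries held 9.20 and 7.63 in dark_3, 16.9 and 11.4 in dark_14 and 14.6 and 13.9 CPM in dark_42. Every library at 14 and 42 lay above every library at 3, and the series overlapped at 14. Between 42 and 3 it rose by 1.10 ± 0.23 in irradiated cells (adjusted p = 0.00488) and 0.76 ± 0.23 in dark cells (adjusted p = 0.0243). IRF1, a factor that drives many of these genes without ISGF3, differed between 42 and 3 by 0.55 ± 0.20 in irradiated cells (adjusted p = 0.115) and 1.25 ± 0.20 in dark cells (adjusted p = 0.00121). It was called higher in blue_14 than in blue_3, by 0.85 ± 0.20 (edgeR adjusted p = 0.0285). IRF7, the factor that amplifies interferon alpha production, differed between 42 and 3 by 0.15 ± 0.24 in irradiated cells (adjusted p = 0.786) and 0.99 ± 0.24 in dark cells (adjusted p = 0.00759). STAT2 rose in dark_14 relative to dark_3 by 0.81 ± 0.16 (adjusted p = 0.00359) and was lower in dark_42 than in dark_14, at -0.54 ± 0.16 (adjusted p = 0.0435), although the second call held in 8 of 19 alternatives. IRF9 was called in no comparison and, at 1.17 to 5.25 CPM, shares its 3′ end with another annotated gene. HELZ2, a nuclear receptor coactivator, was higher at 14 than at 3 in both series, by 0.56 ± 0.13 in irradiated cells (adjusted p = 0.0178) and 0.41 ± 0.13 in dark cells (adjusted p = 0.039).

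Of the 6 remaining genes, none passed in blue_42 relative to blue_3, and IFI35, IFI44, IFI44L, XAF1 and LAP3 were called higher in dark_42 than in dark_3. IFI44, a GTP-binding protein, held 22.3 and 23.6 in blue_3, 37.3 and 43.5 in blue_14 and 27.9 and 28.3 CPM in blue_42. Dark values were 23.8 and 23.6 in dark_3, 34.4 and 51.6 in dark_14 and 58.7 and 46.8 CPM in dark_42. At 14 the series overlapped, while at 42 both irradiated libraries lay below both dark_42 and both blue_14 libraries. The difference between 42 and 3 was 0.29 ± 0.17 in irradiated cells (adjusted p = 0.328) and 1.15 ± 0.16 in dark cells (adjusted p = 7.28e-05). IFI44 was called higher in blue_14 than in blue_3, by 0.80 ± 0.19 (edgeR adjusted p = 0.0153). Its neighbour IFI44L was close to the limit, with 0.662 and 0.324 in blue_3, 1.15 and 1.43 in blue_14 and 2.58 and 1.09 CPM in blue_42. Dark values were 0.317 and 0 in dark_3, 1.72 and 1.02 in dark_14 and 3.46 and 0.910 CPM in dark_42. It had 34 counts in dark_42 and 2 in dark_3, so that their ratio of 14.5 had an exact 95% interval of 3.73 to 125 for counting error, and dark_42 a held most of the 34. Without that library or dark_3 b its call was lost. IFI44L passed the filter on low counts through libraries at 14 and 42, in which it was high. XAF1, which opposes the caspase inhibitor XIAP, held 73.3 and 52.1 CPM in blue_42 and 94.3 and 48.8 CPM in dark_42, so its libraries differed widely within a group. EPSTI1 was called in no comparison.

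The second question was what light did at each number. After 3 irradiations no member passed by edgeR or DESeq2, and 0.0155% of all genes were called by edgeR in either direction. At an unadjusted p under 0.05 stood 11 of the 46, against 6.91% of all genes. Their median log2 difference was 0.18, against 0.01 over all genes, and 36 of 46 lay above 0. MX1 had the smallest adjusted p of the set, and it was 0.455: it held 19.9 and 19.8 CPM in blue_3 and 12.8 and 13.3 CPM in dark_3, a difference of 0.60 ± 0.19. After 14 irradiations no member passed by either tool, and 0% of all genes were called by edgeR. At an unadjusted p under 0.05 stood 2 of the 46, against 5.87% of all genes, so the members were not above the background. The median was 0.02, with 26 of 46 above 0.

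After 42 irradiations 6 members were lower in blue_42 than in dark_42 (0.388% of all tested genes) and none was higher (0.839% of all genes). The median of the 46 was -0.20, against 0.00 over all genes, and 33 lay below 0. ISG15 averaged 54.2 ± 10.1 CPM in blue_42 and 109 ± 27.4 CPM in dark_42 (SD, n = 2 each), a log2 difference of -1.01 ± 0.18 (edgeR adjusted p = 0.012) and 2.01-fold lower. HERC5 averaged 31.7 ± 6.25 CPM in blue_42 and 61.0 ± 3.26 CPM in dark_42, 1.92-fold lower (adjusted p = 0.00302). IFI44 averaged 28.1 ± 0.280 CPM in blue_42 and 52.7 ± 8.37 CPM in dark_42, 1.88-fold lower (adjusted p = 0.00382). Each of these genes had both irradiated libraries below both dark ones, and the same was true of the 3 others. OASL averaged 128 ± 7.95 CPM in blue_42 and 226 ± 23.6 CPM in dark_42, 1.77-fold lower (adjusted p = 0.000783), and IFIT2 139 ± 11.1 CPM in blue_42 and 241 ± 27.1 CPM in dark_42, 1.74-fold lower (adjusted p = 0.002). IFIT3 averaged 286 ± 22.4 CPM in blue_42 and 413 ± 73.8 CPM in dark_42, 1.45-fold lower (adjusted p = 0.0493), close to the threshold. OASL alone kept its call in all 20 alternatives, while IFIT3 kept it in 10. Without blue_42 b the number called was 1, which was OASL.

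These 6 genes came from different roles: 3 act on RNA, 2 belong to the ISG15 system and IFI44 is a GTP-binding protein. They lie on chromosomes 1, 4, 10 and 12, where IFIT2 and IFIT3, both called, are neighbours on chromosome 10. Other neighbours of the 6 genes, IFIT1, HERC6, IFI44L and IFIT5, had differences of -0.38 ± 0.18, -0.26 ± 0.17, -0.26 ± 0.56 and -0.21 ± 0.14 in the same comparison and did not pass. Next to the threshold were RSAD2 at -0.52 ± 0.14 (adjusted p = 0.0658), EPSTI1 at -0.53 ± 0.16 (adjusted p = 0.109) and SAMD9 at -0.36 ± 0.10 (adjusted p = 0.105). On the other side of 0, IFITM2 stood at 0.48 ± 0.13 (adjusted p = 0.0658), STAT2 at 0.38 ± 0.15 (adjusted p = 0.27) and GBP1 at 0.25 ± 0.13 (adjusted p = 0.447). In 20 of the 46 genes both blue_42 libraries lay below both dark_42 libraries, against 20.9% of all tested genes, and in 4 they lay above, against 21.3% of all tested genes. Of the genes with an ISRE core in a promoter window, 4 of 26 were called lower, and of the 12 without, 0 (0.388% of all tested genes). The medians were -0.24 with a core and -0.19 without. The search misses other spacings, such as that in OAS1, so genes without a core as searched may still hold an ISRE. In blue_42 against blue_3, 11 of the 26 with a core and 5 of the 12 without were called higher (4.40% of all tested genes). In dark_42 against dark_3, 20 of the 26 with a core and 8 of the 12 without were called higher (9.47% of all tested genes), with medians of 0.99 with a core and 1.05 without.

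**Figure D4:**
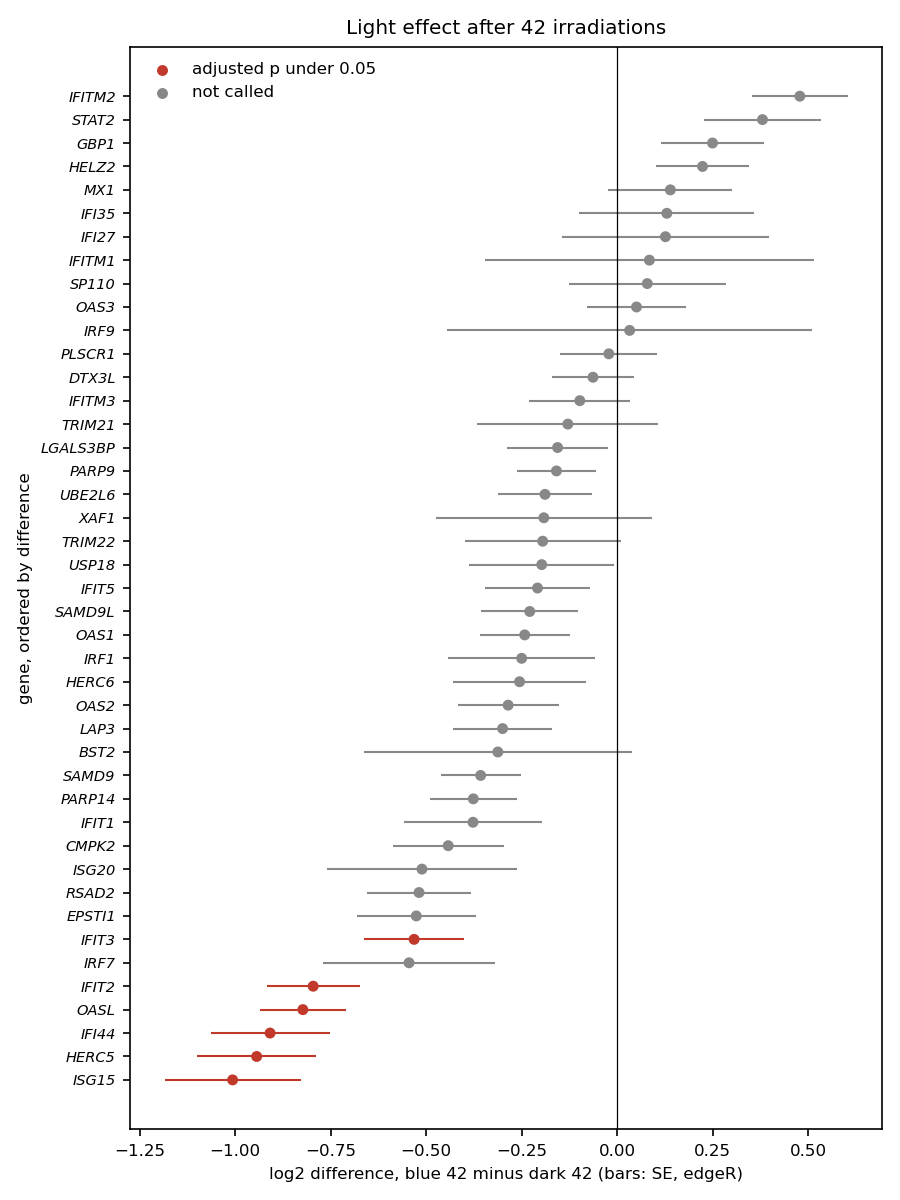
Log2 difference between blue_42 and dark_42 for 43 genes, ordered by size, with SE bars; IFI44L, MX2 and IFI6, whose SE exceeds 0.5, are left out. The 6 red genes passed an edgeR adjusted p of 0.05, all below 0, and IFITM2 lies at the opposite end at 0.48 ± 0.13.

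Whether the light effect changed between numbers was tested directly. Between 42 and 3 irradiations, 3 members had a lower effect at 42 (0.163% of all genes) and none a higher one. These were ISG15 at -1.38 ± 0.25 (adjusted p = 0.028), IFIT2 at -0.80 ± 0.17 (adjusted p = 0.0435) and OASL at -0.76 ± 0.17 (adjusted p = 0.0432), by edgeR. The median over the 46 was -0.46, against -0.02 over all genes, and 40 lay below 0. The count was 0 without dark_3 a, dark_3 b, blue_3 b, blue_42 a or blue_42 b, and 1 without dark_42 a or dark_42 b. HERC5 and IFI44, called at 42, differed between 42 and 3 by -0.68 ± 0.24 (adjusted p = 0.258) and -0.86 ± 0.23 (adjusted p = 0.129). Between 14 and 3, edgeR and DESeq2 called none, and edgeR called 0.0388% of all genes, while 6 of the 46 had an unadjusted p under 0.05, against 8% of all genes. Between 42 and 14 they also called none, and edgeR called 0.0544% of all genes, while 9 of the 46 had an unadjusted p under 0.05, against 8.04% of all genes. The comparisons of blue_42 with dark_42 and of dark_42 with dark_3 share the dark_42 libraries, so they are not independent.

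Genes that act upstream of the set were followed in lists of ligands, receptors, kinases, inhibitors and inducers. Of all 12878 tested genes, 4.40% were called higher and 436 genes lower in blue_42 than in blue_3. For dark_42 against dark_3, 9.47% were called higher and 1064 genes lower. Of 8 interferon genes none reached the filter: IFNA1, IFNB1, IFNG, IFNL2 and IFNL3 had 0 counts in every library, IFNL1 had 28 counts over all 12 libraries, IFNE 26 and IFNK 2. A count of 0 allows a level up to the 3-count limit of each library. Of 6 receptor genes, IFNGR1, the ligand-binding chain for interferon gamma, rose by 1.11 ± 0.13 in blue_42 and 1.16 ± 0.14 in dark_42 relative to 3 (edgeR adjusted p = 2.53e-05 and 1.11e-05). IFNGR2, its partner chain, rose by 0.90 ± 0.20 in blue_42 relative to blue_3 (adjusted p = 0.0104). None of the receptor kinases JAK1, JAK2 and TYK2 passed in blue_42 relative to blue_3. In dark_42 relative to dark_3, JAK1 rose by 0.59 ± 0.11 (adjusted p = 0.00135) and TYK2 fell by 0.58, with an SE of 0.14 (adjusted p = 0.00841), while the difference for JAK2 was 0.69 ± 0.26 (adjusted p = 0.0693). None of the 5 tested inhibitors passed in either of these comparisons. SOCS3 was higher in blue_14 than in blue_3 (3.62% of all genes), at 1.53 ± 0.41 (edgeR adjusted p = 0.0401). Among 8 tested genes of interferon induction, 2 were higher and 1 lower in blue_42 than in blue_3, and 4 were higher and 1 lower in dark_42 than in dark_3. The kinase IKBKE, the receptor TLR3 and the TLR3 adaptor TICAM1 passed in both series. IKBKE rose by 0.76 ± 0.15 in irradiated and 0.72 ± 0.15 in dark cells, and TLR3 by 0.94 ± 0.22 in irradiated and 1.15 ± 0.24 in dark cells. TICAM1 was lower, at -0.51 ± 0.15 in irradiated and -0.93 ± 0.16 in dark cells. The DNA-sensing adaptor STING1 rose by 0.84 ± 0.25 and the factor IRF2 by 0.49 ± 0.13 in dark_42 relative to dark_3. None of the genes named here passed in blue_42 against dark_42.

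Of 31 other interferon-induced genes listed outside the set, 29 were tested. Of these, 8 were higher in blue_42 than in blue_3 (4.40% of all tested genes) and 18 in dark_42 than in dark_3 (9.47% of all tested genes). Median log2 differences were 0.38 in the irradiated and 0.72 in the dark comparison, against -0.001 and 0.02 over all genes. Higher in both were SP100, APOL1, TNFSF10, SHFL, DDX60, IFI16, RNF213 and DDX60L, while ETV7, PARP12, ZC3HAV1, GBP3, NT5C3A, NMI, RTP4, PML, SLFN5 and SLFN11 passed in the dark series alone, with no test of the difference between series given for them. In blue_42 against dark_42, 2 were lower (0.388% of all tested genes) and none was higher (0.839% of all tested genes). The 2 were DDX60, a helicase, at -0.79 ± 0.13 (edgeR adjusted p = 0.00362) and ZC3HAV1, the zinc-finger antiviral protein, at -0.48 ± 0.12 (adjusted p = 0.0486).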

How the data were processed

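The authors deposited 1 table of raw read counts, whole numbers with a row for each gene and a column for each of the 12 libraries. Per the labels' protocols, libraries were made from total RNA with a QuantSeq 3′ FWD kit, which yields tags near transcript ends, so counts were not divided by length. STAR, featureCounts and GRCh38 are named in the submitters' processing notes. Neither source gives versions, the annotation, the strand setting or any use of molecular identifiers. If reads were not collapsed by molecule, intervals and limits cover counting error only.

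Counts were analysed with edgeR 4.0.16 in R 4.3.3. Genes passed filterByExpr at a minimum count of 10, libraries were scaled by TMM, and 1 robust quasi-likelihood model was fitted to all 12 libraries with a mean for each of the 6 groups, leaving 6 residual degrees of freedom. P-values are two-sided and Benjamini-Hochberg adjusted over all 12878 genes, and a call is an adjusted p under 0.05. A difference is log2 of the first over the second group, and its SE is the size of that difference divided by the square root of the F statistic. The common biological coefficient of variation was 9.41%. In simulated counts of 12878 genes, changes were placed in 200 genes that averaged at least 10 CPM. For blue_42 against dark_42, 58.2% of 1.5-fold and 97.0% of 2-fold changes were recovered. The values were 47.8% and 97.0% for dark_42 against dark_3, and 58.2% and 91.0% for blue_42 against blue_3. Between 16 and 19 of 12678 unchanged genes were called. Recovery for genes under 10 CPM was not simulated.

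Values in every library are given for members called in a light comparison and for the 8 with the largest called change over time in each series, and other genes are given by range or difference. The members and the gene lists were chosen with earlier results of these data known. No group held a library deposited again: the chi-square between libraries a and b ran from 1.64 (dark_3) to 8.57 (dark_42) per degree of freedom. Promoters came from RefSeq (GRCh38.p14) and gene positions from GENCODE release 29 on GRCh38. Alternatives were RLE scaling, DESeq2 1.42.0, a filter at 5 CPM and none, non-robust estimation, fits on fewer groups, a block for the replicate letter, and leaving out each library.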

Additional observations from a re-analysis of the deposited data

Results flagged for a closer look

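The effect of light differed between 42 and 3 irradiations for 3 genes, each by a test of that difference in edgeR. For ISG15 the difference of log2 effects was -1.38 ± 0.25 (adjusted p = 0.028), for IFIT2 -0.80 ± 0.17 (adjusted p = 0.0435) and for OASL -0.76 ± 0.17 (adjusted p = 0.0432). At 42 the light effects were -1.01 ± 0.18, -0.80 ± 0.12 and -0.82 ± 0.11, against 0.37 ± 0.18, 0.00 ± 0.13 and -0.06 ± 0.12 at 3. Groups of 2 libraries were too small to look for single libraries that stand apart.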

How the results depend on the processing

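Of 2396 refits of a called member under an alternative, 2094 kept the call, 302 lost it and 0 changed direction. Of 8262 refits of uncalled members, 65 gained a call. RLE scaling moved the median of all genes by under 0.014 in every comparison. The count of members called between dark_42 and dark_14 was 6 and became 1 with DESeq2, 10 without a filter, 3 without robust estimation and 1 in a fit of those groups alone. For the light effect at 42 minus that at 3 it was 3 and became 7 without a filter and 1 without robust estimation. Without a filter, which tests more genes, it became 1 for blue_42 against blue_14, 1 for the light effect at 14 minus 3 and 2 at 42 minus 14, against 0 in each. Otherwise the cause was not tested. Leaving out 1 library gave 1 to 7 for blue_42 against dark_42, 16 to 31 for dark_14 against dark_3, 24 to 34 for dark_42 against dark_3, 1 to 7 for dark_42 against dark_14, 9 to 27 for blue_14 against blue_3, 13 to 22 for blue_42 against blue_3, and 0 to 3 for the light effect at 42 minus 3. Such fits assume that a lone library varies as much as those of other groups. The letters a and b did not pair the libraries in 1 consistent direction. Of 15 correlations of their deviations between groups, 4 were over 0.1 and 4 under -0.1. They ran from -0.446 for dark_14 with dark_42 to 0.406 for blue_42 with dark_42, so differences between a and b were partly shared at 42. With the letter as a block, the pairing fit called 5 members in blue_42 against dark_42, 30 in dark_14 and 34 in dark_42 against dark_3, 4 in dark_42 against dark_14, 24 in blue_14 and 19 in blue_42 against blue_3, and 3 in the light effect at 42 minus 3, and 0 in the other comparisons. Depth limits MX2, IFI44L, BST2, IFITM1 and IRF9 most.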
